A study of Mus musculus with 6 samples.

Results

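Tumour cells can restrain T cells and phagocytes through ligands on their surface, through ectoenzymes that turn released ATP into adenosine, and through breakdown of tryptophan. The genes described here are 10 such factors, chosen by name from the 55487 genes of the count table: Cd274, Vtcn1, Cd276, Pvr, Nectin2, Lgals9, Cd47, Entpd1, Nt5e and Ido1. Earlier results of these data were known when they were chosen. All 10 were found in the table and all 10 passed the filter on low counts, which kept 15978 genes. Bulk libraries of sorted cells from Lkb1-mutant tumours had more Vtcn1 and Nt5e transcript and less Entpd1 transcript than those from Lkb1-wild-type tumours. The other 7 genes did not pass the test. The Nt5e call was lost when sgNeo replicate 2 was left out. What RNA of other cell types adds to these differences was not tested.

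Bulk RNA sequencing was done on cells of lung tumours in the KP mouse model, 11 weeks after tumours were initiated. Both groups carry the KP background, which the labels give by that abbreviation. The control group received sgNeo, a guide that leaves Lkb1 wild type, and the mutant group received sgLkb1, which targets Lkb1 (the Stk11 gene), with 3 libraries in each. Cells with GFP and without CD45 were sorted from the digested tissue, a gate that leaves out leukocytes. The labels name no promoter for the guide vector, no age or sex, and do not say whether a library came from 1 animal, pooled animals or 1 tumour. They also do not state that replicates came from separate animals, so p-values measure the spread between these libraries, which may be technical.

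Most of the ligands act by contact. Members of the B7 family, such as PD-L1, B7-H3 and B7-H4, bind or act on T cells and dampen their activation; nectin-type ligands engage TIGIT, CD96 and PVRIG; galectin-9 binds TIM-3; and CD47 signals to SIRPα on phagocytes. CD39 removes phosphates from extracellular ATP to give AMP, and CD73 then cuts AMP to adenosine, which restrains T cells through the receptors encoded by Adora2a and Adora2b. IDO1 starts the conversion of tryptophan to kynurenine, and it is induced, like PD-L1, by interferon-gamma.

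The promoter windows of the 3 genes that differed between genotypes, and of Cd274, are shown so that their starts can be placed and compared. They were taken from RefSeq on GRCm38.p6 and run from 250 bases before to 50 bases after an annotated transcript start, 5′ to 3′ on the gene's strand. Of the 10 genes, 8 had a window. Entpd1 had a pair of annotated starts, so both windows are given. Capitals mark matches, on either strand, to 5 searched motifs.
Vtcn1, chr3:100825209-100825508, plus strand: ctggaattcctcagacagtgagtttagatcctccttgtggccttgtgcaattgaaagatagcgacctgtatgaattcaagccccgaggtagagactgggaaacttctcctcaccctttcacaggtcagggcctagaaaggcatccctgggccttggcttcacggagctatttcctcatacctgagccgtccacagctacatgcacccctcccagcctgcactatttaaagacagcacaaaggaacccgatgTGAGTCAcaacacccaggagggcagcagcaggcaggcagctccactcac
Entpd1 upstream start, chr19:40612116-40612415, plus strand: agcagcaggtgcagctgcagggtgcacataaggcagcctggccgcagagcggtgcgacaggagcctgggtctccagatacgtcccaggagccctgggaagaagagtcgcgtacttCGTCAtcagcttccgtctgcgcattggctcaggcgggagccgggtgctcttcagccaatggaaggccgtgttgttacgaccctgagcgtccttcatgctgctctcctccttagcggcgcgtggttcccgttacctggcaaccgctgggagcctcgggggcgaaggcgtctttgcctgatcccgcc
Entpd1 downstream start, chr19:40659520-40659819, plus strand: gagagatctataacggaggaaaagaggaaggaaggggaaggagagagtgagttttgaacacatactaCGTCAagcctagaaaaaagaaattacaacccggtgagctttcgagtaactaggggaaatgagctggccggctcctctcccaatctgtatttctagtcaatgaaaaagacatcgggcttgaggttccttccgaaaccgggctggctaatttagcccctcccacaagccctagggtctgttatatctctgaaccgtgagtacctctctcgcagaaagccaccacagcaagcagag
Nt5e, chr9:88327359-88327658, plus strand: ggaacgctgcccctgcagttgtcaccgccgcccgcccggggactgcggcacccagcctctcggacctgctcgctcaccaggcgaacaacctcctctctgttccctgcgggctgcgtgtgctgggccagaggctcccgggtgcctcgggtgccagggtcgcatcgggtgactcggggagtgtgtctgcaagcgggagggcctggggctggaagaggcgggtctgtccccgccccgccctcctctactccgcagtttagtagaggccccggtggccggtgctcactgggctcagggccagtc
Cd274, chr19:29367188-29367487, plus strand: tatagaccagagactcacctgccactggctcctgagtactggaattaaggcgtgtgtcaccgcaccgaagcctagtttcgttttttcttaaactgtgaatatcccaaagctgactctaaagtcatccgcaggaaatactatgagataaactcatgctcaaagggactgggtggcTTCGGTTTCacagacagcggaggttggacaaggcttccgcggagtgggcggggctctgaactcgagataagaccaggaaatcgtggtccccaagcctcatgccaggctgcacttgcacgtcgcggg

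The motifs were the cyclic AMP response element TGACGTCA, its short form TGACG (which lies inside the longer one), the AP-1 site TGANTCA, the interferon-stimulated response element core GAAANNGAA and the gamma-activated site TTCNNNGAA, where N is any base. Vtcn1 held 1 AP-1 match, at base 252 of its window. Each Entpd1 window held 1 match to TGACG, at base 116 and at base 68, read on the other strand. The Nt5e window held none of the 5 motifs, which says only that these letters are not in these 300 bases. That window begins at 88327359, inside the gene as placed by the annotation used for gene positions, where Nt5e starts at 88327197. Bases before that start were not searched. Cd274 held 1 match to the interferon-stimulated response element core, at base 175, and among the genes whose windows are not printed Lgals9 held 2. Nectin2 held 1 full TGACGTCA, at base 290, each of the windows of Cd47 held 2 matches to TGACG, and Cd276 held none of the 5 motifs. Of all 32851 mouse windows of this length, 1.79% hold TGACGTCA, 20.8% TGACG, 7.81% the AP-1 site, 8.56% the interferon-stimulated response element core and 8.3% the gamma-activated site. The matches describe the letters of these windows and were not tested for binding.

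Total counts ran from 26007503 to 28986526 in sgNeo libraries and from 29613678 to 41729299 in sgLkb1 libraries. The targeted gene Stk11 fell (log2 fold change -1.31, edgeR adjusted p = 0.023) without overlap of the groups, but when 1 library was left out its call failed in 5 of 6 fits (edgeR adjusted p up to 0.0757). Epcam, an epithelial surface protein, stood at 437 to 556 CPM (counts relative to the scaled library size) in sgNeo. In sgLkb1 it stood at 935 to 1344 CPM. Among 8 epithelial markers Epcam was the only one called higher, Nkx2-1 was called lower (log2 fold change -1.09), and 6 were not called. Ptprc, which encodes CD45, was between 4.36 and 10.4 CPM, and Cd3e, a T-cell receptor chain, at or below 0.203 CPM. Alveolar type 2 markers fell in 8 of 8 genes, with a summed level of 121800 to 143600 CPM in sgNeo and 11740 to 19430 CPM in sgLkb1. Fibroblast markers rose in 4 of 10 genes, summing to 38.2 to 139 CPM in sgNeo and 203 to 1429 CPM in sgLkb1, with the highest sum in sgLkb1 replicate 3. None of the fibroblast markers passed when sgNeo replicate 2 or 3 was left out, and 1 passed without sgLkb1 replicate 3. Endothelial markers rose in 3 of 10 genes (1 without sgNeo replicate 1), with sums of 58.4 to 98.6 and 106 to 194 CPM. Values of 3 libraries are given below in the order of replicates 1, 2 and 3. In bulk samples, fewer cells of a type and less RNA per cell cannot be told apart.

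Of the 10 genes, 2 were higher and 1 was lower in sgLkb1 at an edgeR adjusted p under 0.05. Over all 15978 tested genes, 15.7% were called, 7.05% higher and 8.6% lower. These shares are also the background for the counts of every gene and marker list, none of which was tested against them. The 10 genes and the lists were picked with earlier results of these data known. A count above its share is therefore no result about them. The groups did not overlap for 4 genes: Vtcn1 and Nt5e had every sgLkb1 library above every sgNeo library, and Entpd1 and Nectin2 every sgLkb1 library below. The same held for 16.3% of all tested genes above and 20.3% below. The median log2 fold change of the 10 genes was 0.20, beside 0.02 over all tested genes, and 6 of the 10 were positive. Their summed level was 1127, 1172 and 1315 CPM in sgNeo and 1366, 1125 and 1216 CPM in sgLkb1, so the totals overlapped while single genes moved in both directions.

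**Figure D1:**
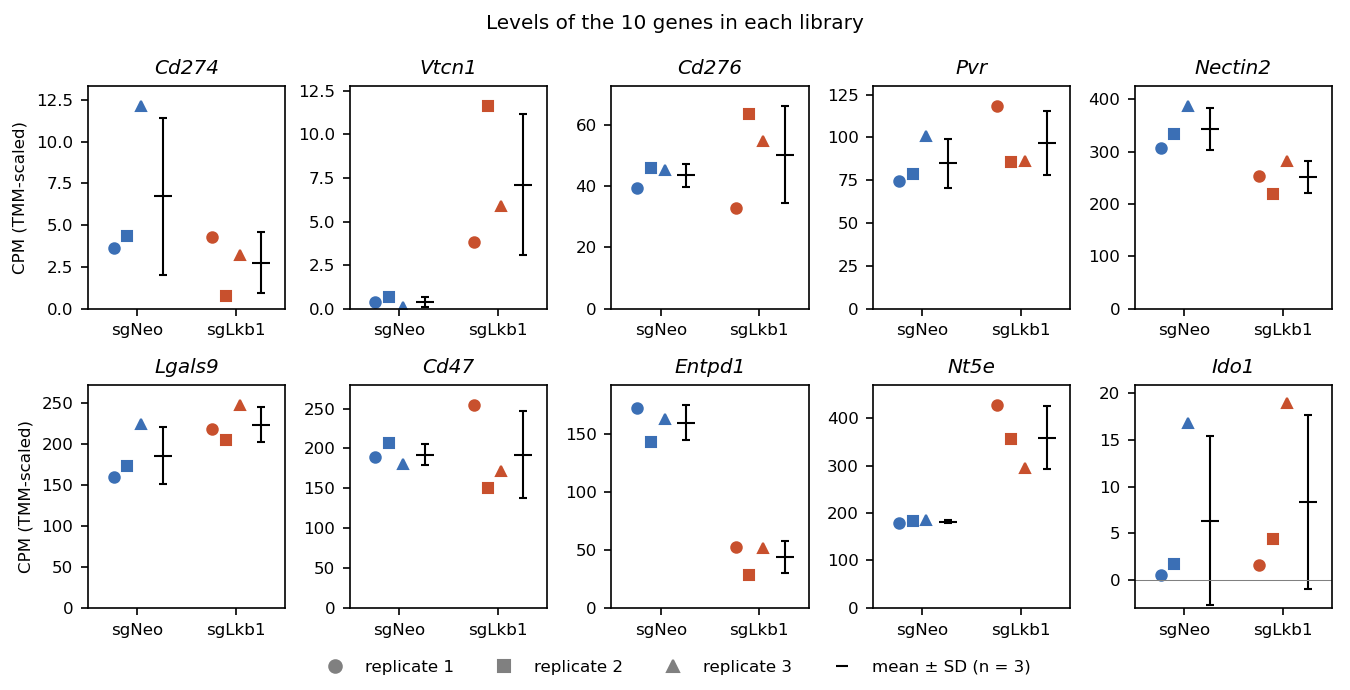
Level of each of the 10 genes in CPM (vertical axes, a separate scale for each gene) in the 3 sgNeo libraries (blue) and the 3 sgLkb1 libraries (orange); marker shapes give the replicate number, and black bars the mean ± SD (n = 3). Vtcn1 and Nt5e are higher in every sgLkb1 library, Entpd1 and Nectin2 are lower in every sgLkb1 library, and Ido1 reaches 16.8 and 18.9 CPM in replicate 3 of the groups.

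Vtcn1, which encodes B7-H4, showed the largest fold among the 10 genes. It lies on chromosome 3 between 100825459 and 100896922, plus strand (GRCm38). Its level was 0.361, 0.688 and 0.120 CPM in sgNeo and 3.82, 11.6 and 5.88 CPM in sgLkb1. Every sgLkb1 library was above every sgNeo library, and the mutant libraries themselves spread about their mean of 7.11 ± 4.05 CPM (SD, n = 3). The sgNeo mean of 0.390 ± 0.286 CPM rested on 9, 17 and 3 reads, against 156, 443 and 205 reads in sgLkb1. The rise was 18.1-fold, a log2 fold change of 4.18 (SE 0.69, 95% interval 2.59 to 5.76, edgeR adjusted p = 0.00628). The size of this fold depends on the low sgNeo level: without sgNeo replicate 2 the log2 fold change was 4.86. The call was kept in all 6 fits that left out 1 library (edgeR adjusted p at most 0.0306). The genes whose centred log2 CPM lay closest to that of Vtcn1 over the 6 libraries were Kit and Trbc1, at root mean square differences of 0.40 and 0.46 log2.

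Cd274 encodes PD-L1 and lies on chromosome 19 between 29367455 and 29388095 (plus strand). Its level was 3.65, 4.37 and 12.1 CPM in sgNeo and 4.28, 0.735 and 3.21 CPM in sgLkb1. The groups overlapped, with the highest value in sgNeo replicate 3 and the lowest in sgLkb1 replicate 2. Group means were 6.71 ± 4.69 and 2.74 ± 1.82 CPM, and the log2 fold change of -1.29 (95% interval -2.87 to 0.29) did not pass (edgeR adjusted p = 0.249). Without sgNeo replicate 3 it was -0.55. An exon of Cd274 overlaps one of AC119228.1 on the other strand, and since the strand setting is not given in the sources used here, reads of the pair cannot be told apart.

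Cd276, which encodes B7-H3, was the most abundant of the 3 B7 genes per kilobase of exon. Its level was 39.3, 45.8 and 45.4 CPM in sgNeo and 32.7, 63.4 and 54.6 CPM in sgLkb1. The sgLkb1 libraries lay on either side of the sgNeo libraries, so the groups overlapped, and the log2 fold change of 0.21 (95% interval -0.34 to 0.76) did not pass (edgeR adjusted p = 0.607). Cd276 lies on chromosome 9 between 58524298 and 58555437 (minus strand), where an exon overlaps one of the antisense gene Gm10657.

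**Figure D2:**
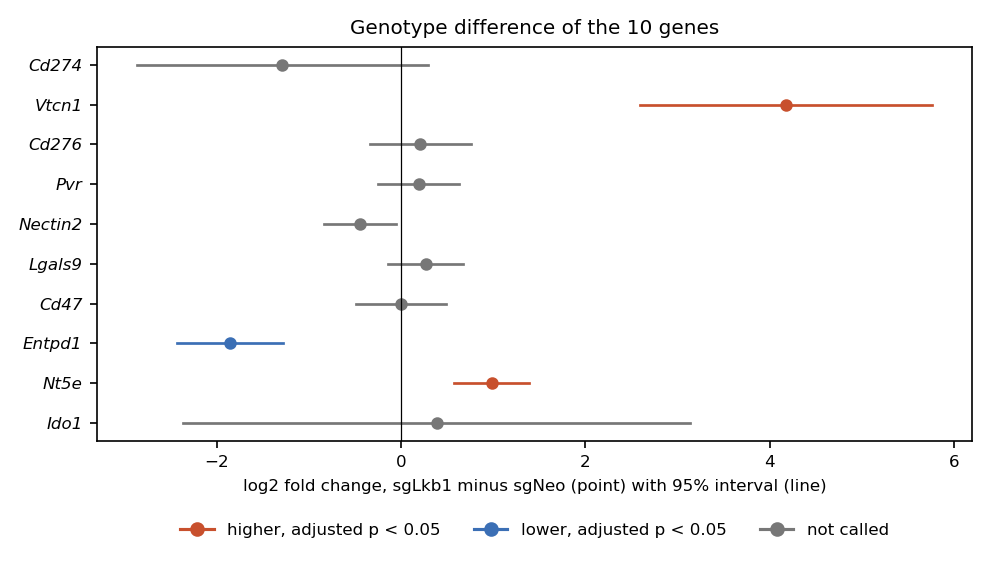
Log2 fold change of each of the 10 genes (horizontal axis, sgLkb1 minus sgNeo, edgeR) with its 95% interval; orange marks genes called higher, blue genes called lower and grey genes not called at an adjusted p of 0.05. Vtcn1 (4.18) and Nt5e (0.98) lie above 0 and Entpd1 (-1.86) below, and the interval of Ido1 is the widest (-2.37 to 3.14).

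The nectin-type ligands are neighbours on chromosome 7 and on the same strand, Nectin2 from 19716644 to 19750483 and Pvr from 19903578 to 19921160, both minus. Nectin2 (CD112), a ligand of PVRIG and TIGIT, was at 308, 334 and 387 CPM in sgNeo and at 253, 220.0 and 282 CPM in sgLkb1. Every sgLkb1 library was lower than every sgNeo library, but the log2 fold change of -0.45 (SE 0.17, 95% interval -0.84 to -0.06) did not pass after adjustment over all genes (edgeR adjusted p = 0.116). An exon of Nectin2 overlaps one of Gm20512 on the other strand. Pvr (CD155), the ligand of TIGIT, CD96 and CD226, was at 74.8, 78.7 and 101 CPM in sgNeo and at 118, 85.4 and 86.4 CPM in sgLkb1. Its groups overlapped (log2 fold change 0.19, 95% interval -0.25 to 0.63, edgeR adjusted p = 0.556).

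Lgals9, which encodes galectin-9, was at 160, 174 and 225 CPM in sgNeo and at 219, 205 and 247 CPM in sgLkb1. Only sgNeo replicate 3 reached into the sgLkb1 range, and the log2 fold change of 0.27 (95% interval -0.15 to 0.68) did not pass (edgeR adjusted p = 0.357). Lgals9 lies on chromosome 11 between 78962974 and 78984946 (minus strand). Cd47, on chromosome 16 between 49800533 and 49915010 (plus strand), encodes the ligand of SIRPα. Its level was 189, 207 and 181 CPM in sgNeo and 254, 150 and 172 CPM in sgLkb1. The groups overlapped and their means were 192 ± 13.4 and 192 ± 54.6 CPM. The 95% interval of the Cd47 log2 fold change, -0.49 to 0.49, leaves room for changes of that size in either direction.

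The ectoenzymes moved in opposite directions. Entpd1, which encodes CD39 and takes ATP and ADP to AMP, was at 173, 144 and 163 CPM in sgNeo and at 52.7, 28.2 and 51.5 CPM in sgLkb1. All sgLkb1 libraries were far below all sgNeo libraries. Means were 160 ± 14.9 and 44.1 ± 13.8 CPM (SD, n = 3), which is 3.62-fold lower in sgLkb1 (log2 fold change -1.86, SE 0.25, 95% interval -2.43 to -1.28, edgeR adjusted p = 0.00275). The call was kept in all 6 fits that left out 1 library, with log2 fold changes from -1.99 to -1.59. Entpd1 lies on chromosome 19 between 40612366 and 40741602 (plus strand), and its closest genes by pattern over the 6 libraries were St6galnac2 and Fgd2 (root mean square differences of 0.074 and 0.085 log2).

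Nt5e, which encodes CD73 and takes AMP to adenosine, was at 178, 183 and 184 CPM in sgNeo and at 427, 355 and 295 CPM in sgLkb1. The sgNeo libraries were nearly equal, and every sgLkb1 library stood above them. Means were 182 ± 3.17 and 359 ± 66.0 CPM, a 1.97-fold rise (log2 fold change 0.98, SE 0.18, 95% interval 0.58 to 1.38, edgeR adjusted p = 0.00886). Without sgNeo replicate 2 the log2 fold change was again 0.98, with an edgeR adjusted p = 0.0533. Among the mutant libraries Nt5e was lowest in sgLkb1 replicate 3, the library with the highest fibroblast marker sum. Without that library the Nt5e log2 fold change was 1.09. Fibroblast sums were higher in every sgLkb1 library (203 to 1429 CPM) than in any sgNeo library (38.2 to 139 CPM). Their part in the Nt5e rise was not tested. Nt5e lies on chromosome 9 between 88327197 and 88372092 (plus strand), and the genes closest to it in pattern were Smim15 and Nptn (root mean square differences of 0.058 and 0.080 log2).

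Within each library, the count of Entpd1 divided by that of Nt5e does not depend on how libraries are scaled. This ratio was 0.969, 0.785 and 0.886 in sgNeo and 0.124, 0.0793 and 0.175 in sgLkb1. It was lower in every sgLkb1 library. The mean log2 ratio was -0.19 ± 0.15 in sgNeo and -3.06 ± 0.57 in sgLkb1 (SD, n = 3), a difference of -2.87, or 7.33-fold. An exact two-sided permutation test over the 20 arrangements of the libraries gave p = 0.1, the smallest it can give with 3 against 3.

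**Figure D3:**
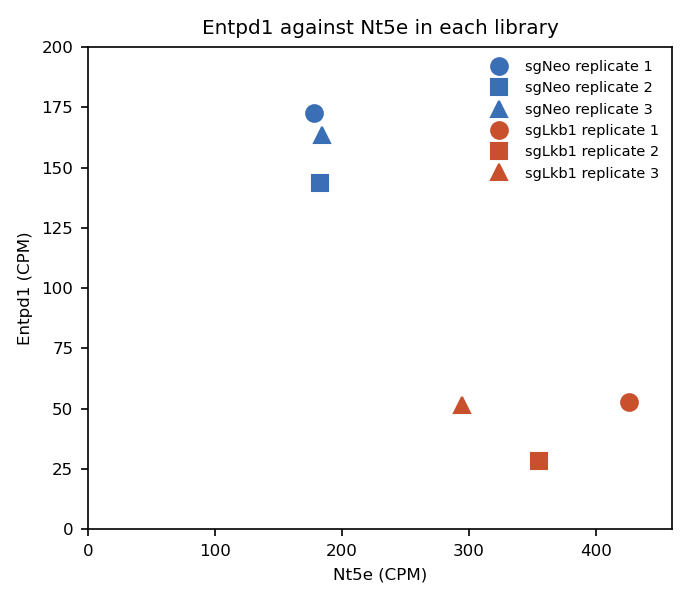
Entpd1 (vertical axis, CPM) against Nt5e (horizontal axis, CPM), 1 point per library, sgNeo blue and sgLkb1 orange. The sgNeo libraries sit together at 144 to 173 CPM of Entpd1 and 178 to 184 CPM of Nt5e, and the sgLkb1 libraries at 28.2 to 52.7 and 295 to 427 CPM.

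The other genes of ATP release, adenosine formation, adenosine clearance and purine receptors were read from a list of 22, all of which were tested. Of these, 7 rose and 8 fell (median log2 fold change -0.18), against 15.7% of all genes called in either direction. Since the list was chosen with earlier results of these data known, this excess is no result about the route. The number that rose was between 3 and 8 and the number that fell between 5 and 7 when 1 library was left out, with 3 rising when sgNeo replicate 1 was omitted, 4 when sgNeo replicate 2 or 3 or sgLkb1 replicate 2 was, and 5 falling when sgNeo replicate 2 was. By limma-voom 3 rose. Entpd2 and Entpd3, relatives of Entpd1 that also split extracellular nucleotides, were named after their values were seen. They were called lower and higher (log2 fold changes -1.01 and 1.01, edgeR adjusted p = 0.0283 and 0.049). With 1 library left out these calls failed in 6 and 4 of 6 fits. Entpd2 shares exon bases with Npdc1 on the same strand, so its level is uncertain.

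Both phosphodiesterases of the list that cut ATP to AMP rose. Enpp1 was at 12.4, 10.6 and 11.0 CPM in sgNeo and at 64.6, 64.2 and 43.7 CPM in sgLkb1 (edgeR adjusted p = 0.000661, log2 fold change 2.34). Its relative Enpp3 went from 0.388 ± 0.060 CPM in sgNeo to 7.33 ± 3.67 CPM in sgLkb1 (edgeR adjusted p = 0.00232, log2 fold change 4.23). In both cases every sgLkb1 library was above every sgNeo library, and both calls were kept in all 6 fits that left out 1 library. Alpl, tissue-nonspecific alkaline phosphatase, which can also take AMP to adenosine, went the other way, from 15.9 ± 1.62 CPM in sgNeo to 1.86 ± 1.49 CPM in sgLkb1 (edgeR adjusted p = 0.00758, log2 fold change -3.10, and -3.98 without sgLkb1 replicate 3).

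Of the 4 adenosine receptors 3 fell. Adora2b was at 106, 114 and 109 CPM in sgNeo and at 33.8, 15.3 and 32.3 CPM in sgLkb1. No sgLkb1 library came near the sgNeo range (edgeR adjusted p = 0.00348, log2 fold change -2.02). Adora1 fell from 26.2 ± 2.87 to 7.80 ± 0.24 CPM (log2 fold change -1.75, edgeR adjusted p = 0.000958), and it shares exon bases with Mybph on the other strand. Adora3, named after its values were seen, fell from 1.81 to 0.103 CPM on average (edgeR adjusted p = 0.0123, and 0.0609 without sgNeo replicate 2), and its exons are shared with Tmigd3. Adora2a, which T cells use, was at or below 1.52 CPM in every library, and its groups overlapped (edgeR adjusted p = 0.256). Dpp4, a surface peptidase that in humans anchors adenosine deaminase, went from 296 ± 31.0 CPM in sgNeo to 37.6 ± 10.8 CPM in sgLkb1 (edgeR adjusted p = 0.000611, log2 fold change -2.97). Clearance genes went both ways, and those given next were named after their values were seen. Ada, adenosine deaminase, rose from 0.334 to 2.47 CPM on average (log2 fold change 2.87, edgeR adjusted p = 0.0165), a call that failed in 4 of the 6 fits without 1 library. Adk, which phosphorylates adenosine inside cells, fell from 259 to 119 CPM on average (log2 fold change -1.12), and Slc28a3, a concentrative nucleoside transporter, rose from 0.348 CPM on average to 2.52, 25.0 and 8.49 CPM (log2 fold change 5.09, and 4.01 without sgLkb1 replicate 2), a call that limma-voom did not make (adjusted p = 0.153). Alveolar type 2 markers, which fell in 8 of 8 genes, moved between the groups beside Entpd1, Adora2b, Alpl and Dpp4, and their part in these results was not tested.

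**Figure D4:**
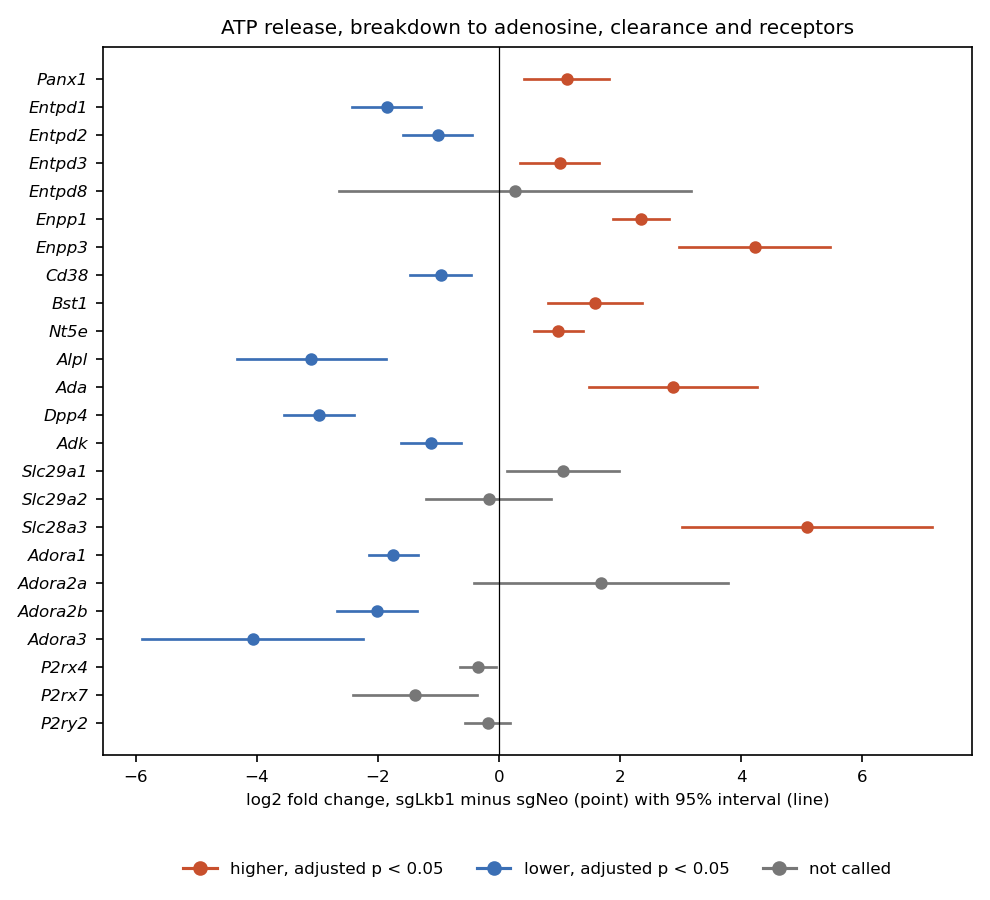
Log2 fold change (horizontal axis, sgLkb1 minus sgNeo, edgeR) with its 95% interval for Entpd1, Nt5e and the 22 other genes of ATP release, breakdown, adenosine clearance and purine receptors; orange is called higher, blue called lower and grey not called. Entpd1 (-1.86), Adora2b (-2.02) and Dpp4 (-2.97) lie to the left, and Nt5e (0.98), Enpp1 (2.34) and Enpp3 (4.23) to the right.

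Ido1, the enzyme that opens the kynurenine pathway, varied more within groups than between them. It lies on chromosome 8 between 24584136 and 24597009 (minus strand). Its level was 0.521, 1.78 and 16.8 CPM in sgNeo and 1.62, 4.44 and 18.9 CPM in sgLkb1. Both groups held low and high libraries and overlapped nearly throughout. The log2 fold change was 0.39 (95% interval -2.37 to 3.14, edgeR adjusted p = 0.865), and its sign depended on single libraries, from -1.10 without sgLkb1 replicate 3 to 2.84 without sgNeo replicate 3.

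Of 15 other genes of tryptophan breakdown and uptake, 11 were tested, 1 fell and none rose (median log2 fold change -0.57). By edgeR with 1 library left out, 1 to 3 fell, 3 when sgNeo replicate 3 was omitted and 2 when sgLkb1 replicate 2 was. By DESeq2 3 fell. At an unadjusted edgeR p under 0.05 there were 6 lower and 0 higher. No share of all tested genes was taken at that unadjusted level. These counts are therefore given without a background and are not read as a result about the list. Il4i1, a secreted amino acid oxidase that also uses tryptophan, was at 67.2, 74.1 and 60.4 CPM in sgNeo and at 29.5, 12.2 and 11.9 CPM in sgLkb1. All sgLkb1 libraries were lower (edgeR adjusted p = 0.01, log2 fold change -1.91), and the call was kept in all 6 fits that left out 1 library. Il4i1 shares exon sequence with Nup62 on the same strand and overlaps Atf5 and Tbc1d17 on the other, so its level is uncertain. Ido2, the paralog of Ido1, was at or below 0.66 CPM. Tdo2, the liver-type enzyme for the same step, was at 43.8, 3.89 and 1.51 CPM in sgNeo and at 0.612, 0.262 and 1.55 CPM in sgLkb1. Its groups overlapped and it did not pass (log2 fold change -4.35, edgeR adjusted p = 0.0545), and without sgNeo replicate 1, the high library, the log2 fold change was -1.75. It passed without sgNeo replicate 3 (edgeR adjusted p = 0.0337) and by DESeq2 (adjusted p = 0.0124).

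Genes of interferon-gamma signalling and of PD-L1 and CD47 handling at the surface had 0 of 13 called by edgeR in either direction. Their median log2 fold change was -0.03. At an unadjusted edgeR p under 0.05 there were 2 higher and 4 lower, again without a share of all tested genes to compare. With other settings up to 1 was called higher and up to 3 lower, the latter without a filter on low counts, and DESeq2 called 1 higher and 2 lower. Ifngr1 and Ifngr2, the receptor chains, were at 154 and 94.9 CPM on average in sgNeo and at 211 and 119 CPM in sgLkb1, without passing (edgeR adjusted p = 0.185 and 0.204). The next genes were named after their values were seen. Irf1, an interferon-induced transcription factor, was at 67.6, 116 and 184 CPM in sgNeo and at 69.2, 67.0 and 87.6 CPM in sgLkb1 (edgeR adjusted p = 0.184). Within sgNeo, Cd274, Ido1, Irf1, Nlrc5, Socs1 and H2-T23 were all lowest in replicate 1 and highest in replicate 3, a set chosen after the values were seen. Over the whole list of 13 genes, 6 had that order in sgNeo, while 3 (Ifngr1, Irf2 and Ptpn2) were lowest in replicate 3. Within sgLkb1, replicate 3 was the highest for Ido1, Irf1, Nlrc5, Socs1 and H2-T23 of the chosen set, and replicate 1 for Cd274. This did not hold for the whole list, where Ifngr1, for example, was lowest in sgLkb1 replicate 3. Cmtm6, which keeps PD-L1 at the surface, was at 220, 231 and 225 CPM in sgNeo and at 168, 153 and 174 CPM in sgLkb1, without overlap and without passing (edgeR adjusted p = 0.0654).

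**Figure D5:**
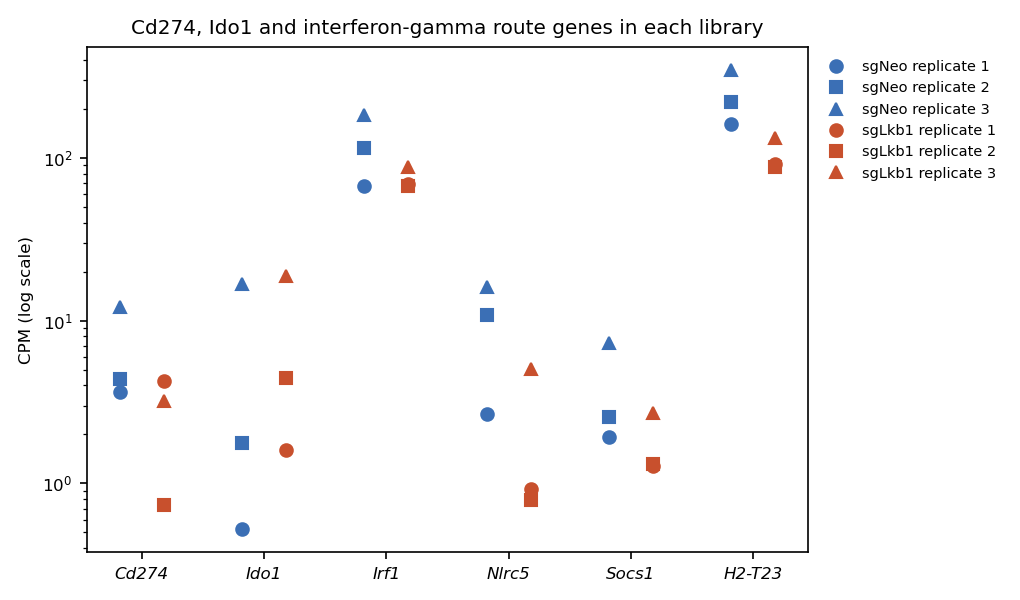
Level in CPM (vertical axis, log scale) of Cd274, Ido1 and 4 genes of the interferon-gamma route or its targets in each library, sgNeo blue and sgLkb1 orange, marker shapes giving the replicate number. In sgNeo every plotted gene, chosen after the values were seen, is highest in replicate 3, where Ido1 is at 16.8 CPM and Cd274 at 12.1 CPM.

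Among 21 other inhibitory ligands, 16 were tested (median log2 fold change 0.39). Of these 4 rose and 3 fell, against 7.05% higher and 8.6% lower over all tested genes. This list too was chosen with earlier results of these data known. With 1 library left out, 1 to 3 rose and 1 to 3 fell, and the lowest counts came without sgNeo replicate 2, with 1 each way. The fit that left out sgNeo replicate 1 called 1 higher, those without sgNeo replicate 3 or sgLkb1 replicate 2 called 2 higher and 1 lower, and that without sgLkb1 replicate 3 called 2 higher. Cd24a, whose human counterpart binds Siglec-10 on macrophages, was at 271, 254 and 218 CPM in sgNeo and at 1225, 987 and 638 CPM in sgLkb1. Every sgLkb1 library was higher (edgeR adjusted p = 0.00256, log2 fold change 1.94), and the call was kept in all 6 fits that left out 1 library. Cd200, the ligand of the myeloid receptor CD200R, fell from 221 ± 12.1 to 91.7 ± 30.6 CPM (log2 fold change -1.27, edgeR adjusted p = 0.013, and 0.054 without sgNeo replicate 2).

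Lgals1, galectin-1, was at 19.9, 16.6 and 36.2 CPM in sgNeo and at 43.3, 189 and 205 CPM in sgLkb1. The groups did not overlap, sgLkb1 replicate 1 lay close to the sgNeo range, and the call (log2 fold change 2.59, edgeR adjusted p = 0.0188) was lost in 3 of the 6 fits with 1 library less. Nectin1 fell from 8.69 to 3.43 CPM on average and H2-T23, the mouse Qa-1 antigen that NKG2A reads, from 243 to 104 CPM (edgeR adjusted p = 0.024 and 0.0279), with calls lost in 3 and 4 of 6 such fits. Btn1a1 was at or below 0.080 CPM in sgNeo and between 0.367 and 0.997 CPM in sgLkb1 (edgeR adjusted p = 0.0382), a call lost in all 6 such fits. Pdcd1lg2, which encodes PD-L2, was at or below 0.115 CPM and Cd80 at or below 0.562 CPM in all libraries, and neither passed the filter.

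Receptors for the ligands ranged from 0 CPM to the level of Sirpa. Of 12 such receptor genes 4 were tested and 0 were called by edgeR, by DESeq2 or with any library left out, with 0 at an unadjusted p under 0.05. Pdcd1, the receptor of PD-L1, was at or below 0.201 CPM, and Tigit was at 3.81, 3.81 and 5.30 CPM in sgNeo and at 7.76, 3.99 and 6.51 CPM in sgLkb1. The Tigit groups overlapped (edgeR adjusted p = 0.373). Sirpa, the receptor of CD47, named after its values were seen, was at 11.1, 5.06 and 7.61 CPM in sgNeo and 12.99, 5.64 and 15.9 CPM in sgLkb1, also with overlap (edgeR adjusted p = 0.444). Of 8 T-cell markers 3 were tested and 0 called by edgeR or DESeq2 (0 at an unadjusted p under 0.05), with summed levels between 3.33 and 8.90 CPM. Of 12 myeloid markers 3 rose (1 if sgNeo replicate 2 was omitted and 5 if sgNeo replicate 1 was), with sums of 18.9 to 31.4 CPM in sgNeo and 54.0 to 78.4 CPM in sgLkb1. The sums were 4.17 to 23.7 CPM for B-cell markers (2 of 8 lower, 0 without sgNeo replicate 1 or 2 or sgLkb1 replicate 3) and 10.1 to 15.4 CPM for dendritic markers (1 of 8 higher, 0 without sgNeo replicate 1 or 3 or sgLkb1 replicate 2). General leukocyte markers summed to 286 to 569 CPM, with 1 of 8 higher and 2 lower (0 lower without sgNeo replicate 2). The one that rose was Cd53, a tetraspanin of leukocytes, at 34.5, 16.1 and 8.45 CPM in sgNeo and 328, 153 and 173 CPM in sgLkb1 (edgeR adjusted p = 0.00481, log2 fold change 3.47), while Lcp1 was lower, at 288 to 347 and 77.7 to 171 CPM. Both were named after their values were seen. Of 5 mesothelial markers 1 rose (0 without sgNeo replicate 2, 3 without sgLkb1 replicate 1). The riser was Msln, at 168 to 426 CPM in sgNeo and 813 to 1275 CPM in sgLkb1. Upk3b, Lrrn4 and Wt1 were highest in sgLkb1 replicate 3, at 16.5, 13.1 and 7.46 CPM, and Calb2 was at or below 0.0734 CPM. These mesothelial genes were also named after their values were seen. Of 8 epithelial markers 1 rose and 1 fell (0 either way without sgNeo replicate 1 or 2). No gene of these marker lists was at 0 in all 6 libraries. What the remaining leukocyte and stromal RNA adds to the 10 genes was not tested.

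Levels of different genes were compared per kilobase of exon. In sgNeo the order, in CPM per kilobase, was Nectin2 (98.2), Lgals9 (87.1), Cd47 (30.6), Entpd1 (28.7), Nt5e (21.1), Pvr (13.9), Cd276 (11.9), Ido1 (3.48), Cd274 (1.85) and Vtcn1 (0.149). Of the 9 neighbouring pairs in that order 4 overlapped between libraries and could not be ranked: Nectin2 and Lgals9, Cd47 and Entpd1, Pvr and Cd276, and Ido1 and Cd274. In sgLkb1 it was Lgals9 (104.7), Nectin2 (72.0), Nt5e (41.7), Cd47 (30.6), Pvr (15.8), Cd276 (13.7), Entpd1 (7.91), Ido1 (4.56), Vtcn1 (2.71) and Cd274 (0.757). Here 5 neighbouring pairs overlapped, those of Nt5e with Cd47, Pvr with Cd276, Cd276 with Entpd1, Entpd1 with Ido1 and Ido1 with Vtcn1. Per kilobase, Entpd1 stood above Nt5e in sgNeo and well below it in sgLkb1, and Vtcn1 stood below Cd274 in sgNeo and above it in sgLkb1. Before division by exon length, Entpd1 was below Nt5e in sgNeo too, with count ratios of 0.969, 0.785 and 0.886. The sgNeo order of these enzymes thus rests on the exon lengths used.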

How the data were processed

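Bulk RNA sequencing libraries of sorted lung tumour cells were compared, 3 per genotype. Per the labels' protocols, RNA was extracted with a PureLink kit and libraries were made with Nextera XT. The authors deposited expected counts per gene, estimates that need not be whole. Per the submitters' processing notes the tools were FastQC, STAR, RSEM and DESeq2, and the build was GRCm38. No source used here gives tool versions, the strand setting or the annotation release. Since RSEM splits a read that matches several genes, genes with close copies are uncertain.

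Counts were rounded to integers, filterByExpr kept 15978 of 55487 genes, and TMM set the library scale. Genotypes were compared with edgeR 4.0.16 in R 4.3.3 (glmQLFit and glmQLFTest, two-sided, genotype only), and p-values were adjusted by Benjamini-Hochberg over all tested genes, with calls at 0.05. An adjusted p with no other tool beside it is edgeR's. SE was computed as the size of the log2 fold change over the square root of F. CPM is relative to scaled library sizes, and 3 counts equal 0.119 to 0.121 CPM in sgNeo and 0.0734 to 0.0861 CPM in sgLkb1, a floor that covers counting error only. Exon lengths, overlaps and gene positions came from GENCODE M21 (GRCm38), which held 55227 of the 55487 gene IDs, 54435 of them in the same version. Exons of Stk11, Dpp4, Slc28a3 and Irf1 also overlap those of Cbarp, Gm13561, Gm3131 and Gm17334, in that order, on the other strand. The Entpd1 to Nt5e ratio was taken with 0.5 counts added and tested by exact permutation. All value columns were matched to a sample, and replicate libraries differed by more than sampling noise.

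The 10 genes and the lists were chosen with earlier results of these data known. Named genes were the 10 members, Stk11, the first 2 genes of each list, list genes past the threshold (the 6 with the lowest p where more passed), 6 marker genes, and for each called member the 2 tested genes with the smallest root mean square difference of centred log2 CPM (prior count 2). Others are said to be named after their values were seen. The alternatives were RLE and upper-quartile scaling, TMM without the 10 most abundant genes, an unfiltered table, a minimum CPM of 1 in 3 libraries, limma-voom (limma 3.58.1), DESeq2 1.42.0, robust dispersions, a block for the replicate number, and fits without 1 library each. The scripts were tested on simulated counts. A gene of the interferon list is not reported here.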

Additional observations from a re-analysis of the deposited data

How the results depend on the processing

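Over 9 other settings, 85 of 90 values of the 10 genes kept their direction and their side of the threshold, and the others were 5 changes of sign of Cd47, whose log2 fold change was 0.03 with RLE scaling, 0.005 with upper-quartile scaling, 0.009 with TMM without the 10 most abundant genes, 0.036 with no filter on low counts and 0.03 with DESeq2. With 1 library left out it ran from -0.24 to 0.17, that of Ido1 from -1.10 to 2.84 and that of Ido2 from -0.072 to 1.13. The log2 fold change of Ido2 was -0.031 with limma-voom. Of 265 values of the other named genes 252 kept direction and side, 10 lost and 2 gained a call and 1 changed sign. Members called higher numbered 1 to 2 with a library left out (1 without sgNeo replicate 2), and members called lower 1 throughout. The genes called between genotypes numbered 1129 to 2780 with a library left out, with 1325, 1129 and 1587 when sgNeo replicates 1, 2 and 3 were removed and 1529 when sgLkb1 replicate 2 was. Fewer libraries enter these fits, and the cause was not tested otherwise. The other settings gave 2279 to 3559. Whether the replicate numbers pair the libraries could not be decided, since the correlations were small and each group has 3 libraries. Same-numbered libraries deviated together with r = 0.135, -0.021 and 0.115 across genes, and differently numbered ones with r from -0.174 to 0.088. Not every library correlated best with its own number. With the replicate block 2880 genes were called, again with 2 members higher and 1 lower. Paired by number, the log2 ratio of Entpd1 to Nt5e, sgLkb1 minus sgNeo, was -2.87 (exact sign-flip p = 0.25, the smallest 3 pairs allow). It was -3.15 to -2.58 with a library left out. Scaling moved the median log2 fold change of all genes between 0.02 and 0.05. The sgNeo level of Vtcn1 rests on 3 to 17 reads, so depth limits the size of its fold.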
